A study of Mus musculus with 24 samples.

Results

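The comparison described here asked whether myoblasts with knockdown (KD) of *Baf180* responded to copper (Cu) differently from control myoblasts that carried a scrambled shRNA (scr). It used 8 of the 24 RNA-seq libraries of the series, 2 for each combination of line (scr or *Baf180* KD) and condition (no added metal, NT, or 100 µM CuSO4 for 48 h). For every gene, the log2 change with Cu in scr cells was subtracted from the log2 change with Cu in *Baf180* KD cells, so a positive difference means that the gene went up more, or down less, in the KD line. A gene was kept when this difference had an adjusted p under 0.05 in edgeR's quasi-likelihood test both before and after every library was corrected for the GC content and length of the genes, with the same sign. Of 16344 genes tested in both fits, 187 were kept (1.14%), 64 with a higher difference (0.392%) and 123 with a lower one (0.753%).

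The calls rest on the spread between replicates of all 12 groups of the series and on single libraries of the comparison. Fitted on the 8 libraries alone, edgeR called no gene before or after the correction, while 2346 of the corrected differences had an unadjusted p under 0.05. In the same 8 libraries DESeq2's Wald test, an alternative chosen after the data were seen, kept 189 genes, of which 104 were among the 187. Leaving out replicate 1 of *Baf180* KD with Cu, or replicate 2 of untreated scr, left 0 kept genes, whereas 15 and 5 genes were kept without replicate 1 or replicate 2 of untreated *Baf180* KD. Without replicate 2 of scr with Cu, 121 were kept. The sign of the difference stayed the same for 187 of 187 kept genes in each of the 8 fits that left out 1 library. The choice of these genes largely fixes this, since each such fit shares the other libraries with it.

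C2C12 is an established mouse myoblast line. In the study's methods, cells were transduced with virus that carried an shRNA, selected with puromycin and kept as stable populations, and 2 independent biological replicates of proliferating cells were sequenced for scr, *Baf180*, *Baf250a* and *Brd9* KD with no metal, Cu or Zn. Scr cells went through the same transduction and selection, so both lines carry a construct and grew under the drug. The methods speak of stable populations, not clones, and do not say whether the replicates of a line came from separate transductions. Sample labels describe primary myoblasts and a lipid transfection instead, and a treatment tag in them contradicts the sample titles, by which the libraries were grouped here.

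Baf180, the product of *Pbrm1*, is a bromodomain protein found in the PBAF form of the SWI/SNF chromatin remodelling complex. Cu is a cofactor of cytochrome c oxidase and of the superoxide dismutase Sod1, enters cells through Slc31a1 and leaves through Atp7a, and in excess is bound by metallothioneins, whose genes are driven by the transcription factor Mtf1. Cu in excess also causes oxidative stress, to which cells respond with detoxifying enzymes under the factor NRF2.

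The targeted transcript was checked first. The study lists 2 shRNAs against *Baf180* without saying which was used for these libraries, and their 21-base targets are shown because they define the knockdown. Read on the coding strand of GENCODE M21 transcripts, both match *Pbrm1* exactly and no other gene.
shRNA1 target: tgtgaagttggtcctagttta
shRNA2 target: gtgcaatatccagactattat
The first lies in exon 31, the last, of transcript ENSMUST00000112095.7, in the 3' UTR (GRCm38 chr14:31119323-31119343, + strand), and occurs in 4 of 17 annotated *Pbrm1* transcripts. The second spans the junction of exons 7 and 8 in the coding sequence (chr14:31036057-31036059 and chr14:31038933-31038950, + strand), and occurs in 13 of the 17.

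*Pbrm1* was at 65.8 and 75.7 normalised counts in CPM (read pairs scaled to a common library size, the usual unit of expression) in the libraries of untreated *Baf180* KD cells and at 143 and 99.9 in those of untreated scr cells. With Cu it was at 42.2 and 56.0 CPM in the KD line and at 126 and 171 in scr. All 4 KD libraries lay below all 4 scr libraries. Untreated KD cells held 58.4% of the scr level before correction (log2 difference -0.78, SE 0.18, edgeR adjusted p = 0.00136) and 48.4% after it (-1.05, SE 0.13, edgeR adjusted p = 8.82e-07), a partial loss of the transcript. The Cu response of *Pbrm1* itself differed between the lines by -0.37 after correction (SE 0.18, edgeR adjusted p = 0.286).

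Totals of the 8 libraries ranged from 16520069 to 44746359 counts, and from 20114 to 23789 genes had at least 1 count. The ribosomal RNA gene *CT010467.1* took 4.57% and 1.61% of counts in untreated scr and 0.137% to 0.782% in the other 6 libraries. Mitochondrial transcripts took 0.856% in replicate 2 of untreated scr and in replicate 1 of *Baf180* KD with Cu, the lowest shares of the 8, and up to 1.74% in the others. The part of either in the difference of Cu responses was not tested. Of the 7 myoblast markers, all were expressed, with a sum of 2180 to 2385 CPM in *Baf180* KD and 4012 to 5025 in scr libraries. *Des*, *Itga7*, *Chrna1*, *Cdh15* and *Myf5* were lower in all KD libraries than in any scr library. *Pax7* went the other way, at 2.76 to 3.53 CPM in *Baf180* KD and 0.948 to 1.58 in scr. *Myod1* overlapped, at 103 to 130 CPM and 67.6 to 116. The 9 markers of differentiated muscle summed to 84.5 to 191 CPM, from 145 to 147 in *Baf180* KD with Cu, 175 to 191 in untreated *Baf180* KD and 84.5 to 117 in scr. Adipocyte, osteoblast, leukocyte, endothelial and epithelial markers summed to at most 6.18 CPM per list and library, the highest being endothelial in scr, and adipocyte *Lep* and leukocyte *Adgre1* were at or near 0. None of the markers was kept. In bulk RNA, fewer cells of a type and less RNA per cell cannot be told apart.

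Before correction, the difference of Cu responses was called for 2116 of 16524 genes (12.8%), 891 higher (5.39%) and 1225 lower (7.41%). It followed GC content: over 16344 genes the Spearman correlation between the difference and the GC content of a gene's exons was 0.55, with a median difference of -0.93 in the 5% of genes poorest in GC (median 37.4%) and 0.32 in the richest (median 60.6%). The genes are not independent points, since they share the 8 libraries. The trend came from both lines in opposite directions, with correlations of 0.47 for the Cu response of *Baf180* KD and -0.43 for that of scr. After correction the correlation was 0.07 and 235 of 16344 genes were called (1.44%), 100 higher (0.612%) and 135 lower (0.826%).

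**Figure D1:**
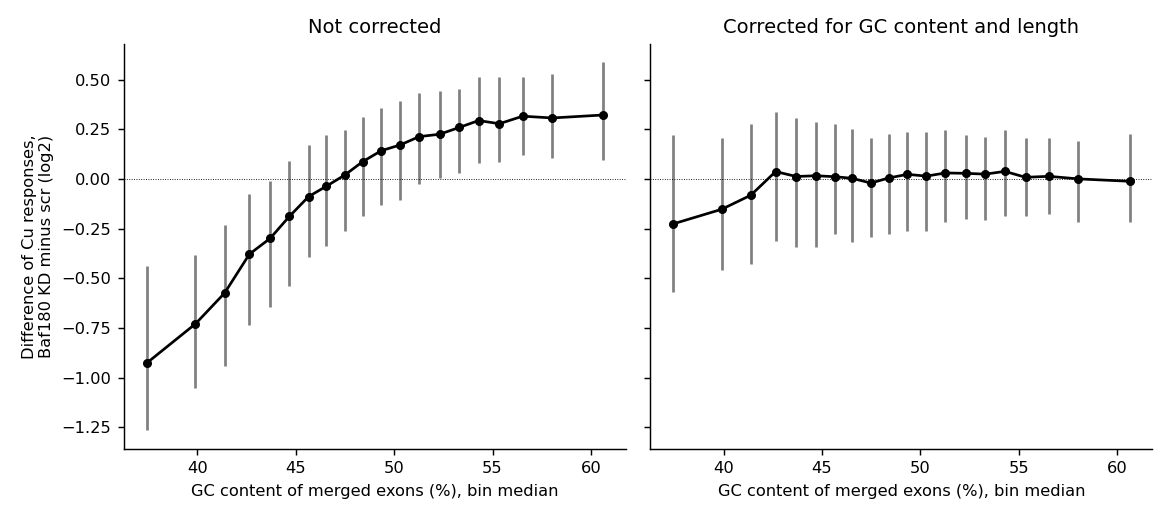
Difference of Cu responses (*Baf180* KD minus scr, log2) against GC content of merged exons (%) in 20 bins of 817 or 818 genes, before and after correction; points are bin medians and bars the middle 50% of genes. Before correction the medians climb from -0.93 to 0.32, and after it they lie between -0.23 and 0.04.

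Per 10 percentage points of GC content, expression was tilted by a log2 slope of 0.28 and 0.10 in *Baf180* KD with Cu and 0 and -0.15 in untreated *Baf180* KD. It was 0.22 and -0.11 in scr with Cu and 0.11 and 0.33 in untreated scr. The libraries with the steepest positive slopes, replicate 2 of untreated scr and replicate 1 of *Baf180* KD with Cu, are those without which no gene was kept. They also lay farthest from their line's mean over the kept genes on the corrected scale. For the 64 higher genes the median was 0.23 above the scr mean in untreated scr replicate 2 against -0.03 in replicate 1, and 0.33 above the *Baf180* KD mean in Cu replicate 1 against 0.15 in Cu replicate 2. For the 123 lower genes, the same medians were -0.27 and -0.02 in untreated scr, and -0.31 and -0.17 in *Baf180* KD with Cu. The part of these slopes in the kept differences was not tested beyond the correction.

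With Cu, corrected, 786 genes changed in *Baf180* KD (4.81%, 388 up, 2.37%, and 398 down, 2.44%) and 84 in scr (0.514%, 37 up, 0.226%, and 47 down, 0.288%). Among the 187 kept genes, 135 were called in *Baf180* KD alone, 5 in scr alone, none in both and 47 in neither. The absolute response was larger in *Baf180* KD than in scr for 152 of the 187. Higher genes had a median response of 0.47 in *Baf180* KD and -0.24 in scr, and lower genes of -0.48 and 0.31. The signs of both responses were opposite for 179 of the 187, a direction that the choice of genes largely fixes. On corrected CPM, the Cu and NT libraries did not overlap for 186 of the 187 in *Baf180* KD (51.9% of all genes) and for 127 in scr (34.3% of all genes). They did so in opposite directions in both lines for 123 of the 187 (9.6% of all genes). These counts also follow largely from the choice of genes, which used the same libraries.

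**Figure D2:**
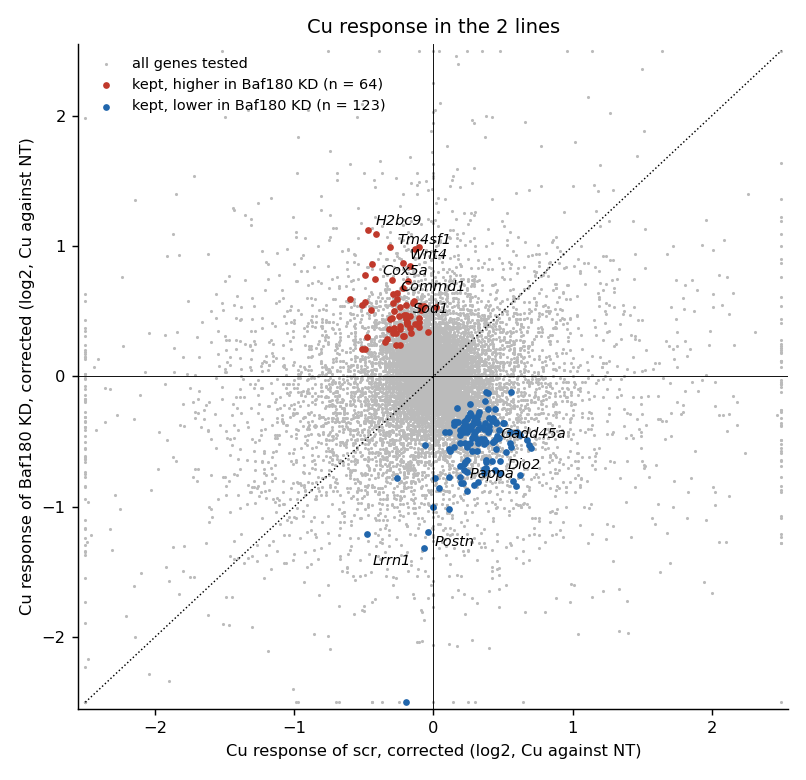
Corrected Cu response (log2, Cu against NT) of scr on the x axis and of *Baf180* KD on the y axis for 16344 genes, with kept genes coloured, values beyond 2.5 drawn at the edge, and the dotted line marking equal responses. The 64 higher genes sit at upper left of centre and the 123 lower genes at lower right, while *Lrrn1* and *Postn* sit near 0 for scr and below -1 for *Baf180* KD.

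*Lrrn1*, which encodes a leucine-rich repeat membrane protein, had the smallest adjusted p of the kept genes. It was at 44.8 and 44.8 CPM in untreated *Baf180* KD cells and at 17.0 and 19.7 with Cu. In scr it was at 294 and 253 CPM untreated and at 297 and 220 with Cu. Cu libraries of the KD line lay below its untreated libraries, whereas those of scr overlapped, and all KD libraries were far below scr. The corrected difference was -1.25 (SE 0.15, edgeR adjusted p = 9.02e-04), with a Cu response of -1.32 in *Baf180* KD and -0.07 in scr. *Lrrn1* (chr6:107529768-107570214 in GRCm38, + strand) was the 1 kept gene whose corrected difference stayed past the threshold in all 8 fits that left out a library, with values from -1.40 to -1.08. In 2 of these fits it was not kept, since no gene was called both before and after correction.

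*Postn* encodes periostin, a secreted matrix protein, and was 1 of the genes the study named for the Cu response of *Baf180* KD. Its level was 73.9 and 87.6 CPM in untreated *Baf180* KD and 23.04 and 31.82 with Cu, against 136 and 96.9 in untreated scr and 114 and 156 with Cu. Both Cu libraries of the KD line were below every other library, and scr libraries overlapped. The difference was -1.77 before and -1.15 after correction (SE 0.17, edgeR adjusted p = 0.00459), with corrected responses of -1.19 and -0.04. *Postn* (chr3:54361109-54391037, + strand) has a GC content of 39.1% over 8702 bases of exons. Its corrected difference lost its call without replicate 1 of *Baf180* KD with Cu (adjusted p = 0.0838) and without replicate 2 of untreated scr (adjusted p = 0.0752).

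*Pappa*, *Zfp36l1* and *Zfp260* also passed after correction in 6 of these 8 fits, and the first 2 are named here because of that, after their values were seen. *Pappa*, a secreted protease that cleaves IGF-binding proteins, was at 94.0 and 104 CPM in untreated *Baf180* KD and 50.9 and 56.6 with Cu, and at 331 and 281 in untreated scr and 374 and 366 with Cu. Cu and NT libraries did not overlap in either line and moved opposite ways, with a corrected difference of -1.03 (SE 0.14, edgeR adjusted p = 0.00334). *Zfp36l1*, an RNA-binding protein that speeds the decay of AU-rich mRNAs, had a difference of -0.97 (SE 0.15, edgeR adjusted p = 0.00862), and the zinc finger gene *Zfp260* of -0.89 (SE 0.13, edgeR adjusted p = 0.00581). The remaining 182 kept genes passed after correction in 1 to 5 of the 8 fits.

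Among higher genes, *Tm4sf1*, a tetraspanin-like cell surface protein, was at 180 and 164 CPM in untreated *Baf180* KD and 310 and 272 with Cu, and at 115 and 158 in untreated scr and 118 and 131 with Cu. The Cu libraries of the KD line stood above all others and scr libraries overlapped. Its difference was 0.89 before and 1.29 after correction (SE 0.21, edgeR adjusted p = 0.0117). *Wnt4*, a secreted Wnt ligand, was at 5.602 and 5.804 CPM in untreated *Baf180* KD and 13.06 and 10.99 with Cu, and at 10.96 and 14.58 in untreated scr and 10.73 and 10.16 with Cu. The 2 untreated KD libraries were the lowest, and Cu libraries of the KD line lay within the range of scr. Its difference was 1.08 (SE 0.19, edgeR adjusted p = 0.0117).

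**Figure D3:**
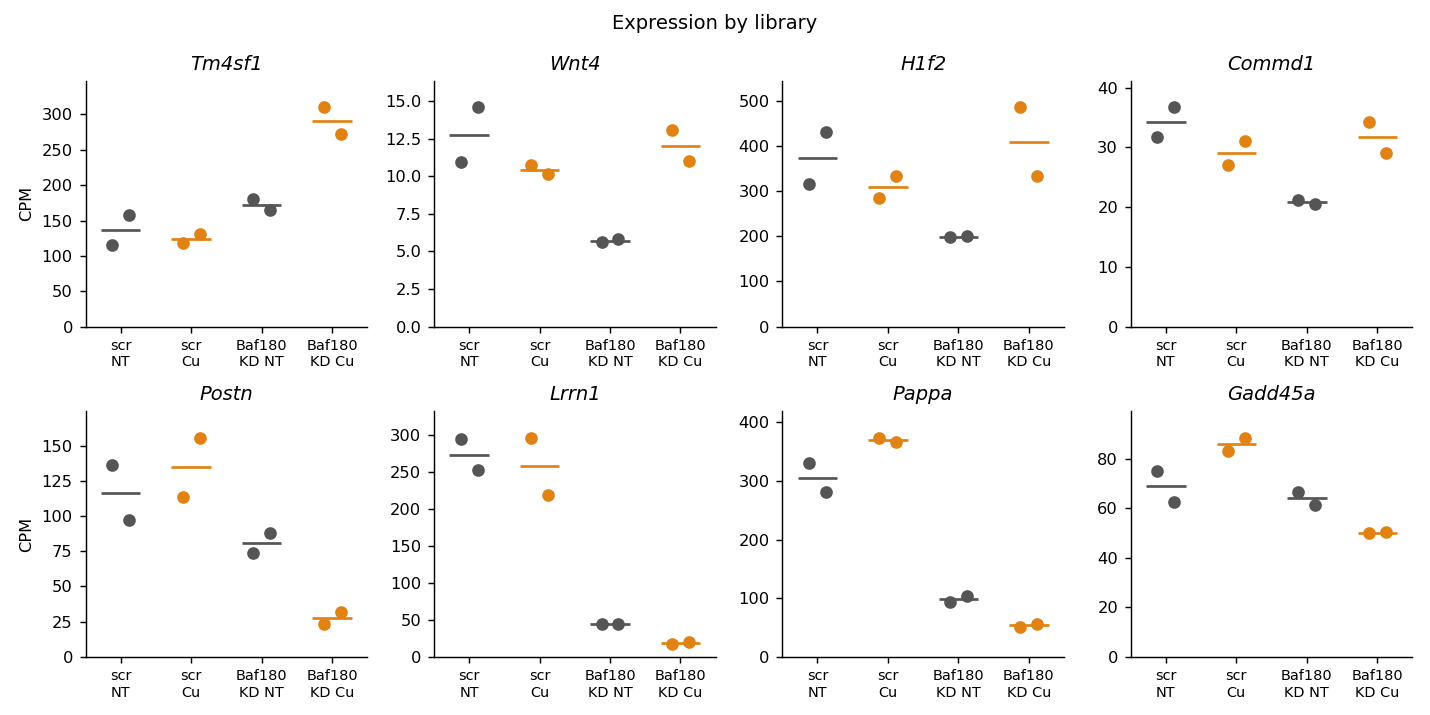
CPM of 8 kept genes in the 8 libraries (y axis, from 0), by line and condition; each point is a library, grey without metal and orange with Cu, and lines are the means of 2. In the top row the untreated *Baf180* KD libraries lie below the Cu libraries of that line, and in the bottom row above them.

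Replication-dependent histone genes, whose mRNAs end in a stem-loop instead of a poly(A) tail and are made in S phase, had the largest median difference of the 32 lists. Of 29 tested, 6 were kept, all higher (20.7%, against 1.14% of all genes), and 28 of 29 differences were above 0, with a median of 0.82 against 0 for all genes tested. Before correction 22 of the 29 were called higher. The kept members were the linker histones *H1f2*, *H1f3* and *H1f4* and the core histones *H2ac6*, *H2ac11* and *H2bc9*. The list had a median Cu response of 0.71 in *Baf180* KD and -0.13 in scr. Taken from the spread of list medians between replicate libraries, the SD of the difference for 1 library per group was 0.34. Over the lists this replicate SD ran from 0.04 (DNA replication and S phase) to 1.32 (mitochondrial genome), with 0.37 for the proteasome. Members of a list share the 8 libraries, so counts of members above 0 are not independent. Libraries were made from RNA depleted of ribosomal RNA, so these transcripts were sequenced, but near-identical copies make their unique counts uncertain.

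*H1f2* was at 197 and 201 CPM in untreated *Baf180* KD and 485 and 332 with Cu, and at 316 and 431 in untreated scr and 284 and 333 with Cu. Cu and NT libraries of the KD line did not overlap and those of scr did, and the difference was 1.32 before and 1.02 after correction (SE 0.21, edgeR adjusted p = 0.0339). For *H1f3* the level was 270 and 262 CPM in untreated *Baf180* KD and 472 and 410 with Cu, against 337 and 401 and then 343 and 317 in scr, a difference of 0.89 before and 1.49 after correction (SE 0.29, edgeR adjusted p = 0.0266). The annotation joins 7425 bases of exons with 39.8% GC to *H1f3*, and the corrected value depends on these. *H1f4* differed by 0.89 before and 0.67 after correction, and *H2ac6* by 1.28 and 1.29. For *H2ac11* the difference was 1.32 and 0.91, and for *H2bc9* 1.31 and 1.58. Their corrected values depend on the annotated exons too, which span 485 bases with 64.3% GC for *H2ac11* and 1679 bases with 43.8% GC for *H2bc9*.

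The 150 bases before the RefSeq start of the 3 linker histone genes are shown because these genes moved together (GRCm38.p6, chr13:23738657-23738806 on the + strand, chr13:23554882-23555031 on the + strand and chr13:23622559-23622708 on the - strand). Capitals mark AAACACA, a motif known from H1 promoters, and CCAAT.
H1f2: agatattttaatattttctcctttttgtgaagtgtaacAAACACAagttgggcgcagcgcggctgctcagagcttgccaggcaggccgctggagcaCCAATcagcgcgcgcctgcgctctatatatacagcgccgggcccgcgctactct
H1f3: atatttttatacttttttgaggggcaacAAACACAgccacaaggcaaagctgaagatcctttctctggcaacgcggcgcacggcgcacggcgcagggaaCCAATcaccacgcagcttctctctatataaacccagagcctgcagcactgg
H1f4: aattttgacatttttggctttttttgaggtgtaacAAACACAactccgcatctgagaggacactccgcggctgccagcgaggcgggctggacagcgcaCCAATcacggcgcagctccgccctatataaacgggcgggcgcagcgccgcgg
AAACACA starts 112, 122 and 115 bases before the start of *H1f2*, *H1f3* and *H1f4*, and CCAAT 54, 51 and 52 bases before it. Over the 250 bases before the start and on both strands, AAACACA was in 3 of the 6 kept histone genes and 6.25% of 32851 promoters, and CCAAT in 6 of the 6 and 33.8%. The 3 with AAACACA are the linker histone genes, so that count follows from the gene family. Histone genes that were not kept were not counted apart, so these shares cannot tie either motif to the Cu difference.

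Genes of mitochondrial respiration were also kept. Of 76 nuclear oxidative phosphorylation subunits, 4 were kept higher and 1 lower (6.58%, against 1.14% of all genes). The list had a median difference of 0.26 (replicate SD 0.19) and 60 of 76 above 0. *Cox5a*, a subunit of cytochrome c oxidase, was at 104 and 94.8 CPM in untreated *Baf180* KD and 159 and 116 with Cu, and at 165 and 206 in untreated scr and 149 and 158 with Cu. On these uncorrected CPM, Cu and NT libraries did not overlap in either line and moved opposite ways. On corrected CPM those of scr overlapped, at 172.6 and 142.5 with Cu and 171.6 and 249.5 untreated. The difference before and after correction was 0.74 and 1.18 for *Cox5a*, 0.83 and 1.27 for *Atp5g3* (ATP synthase) and 0.74 and 0.96 for *Ndufb2* (complex I). It was 0.74 and 0.61 for *Uqcrfs1* (the Rieske protein of complex III), whereas *Uqcrb*, also of complex III, had -1.35 and -0.88. Counts of *Atp5g3* are uncertain because of its near-identical copies. Outside the list, *Hadhb* of fatty acid beta-oxidation was also kept (0.50 before and 1.07 after correction).

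Of 10 transcripts tested from the mitochondrial genome none was kept (against 1.14% of all genes), with a median of -0.44 (replicate SD 1.32). Of 77 mitochondrial ribosomal proteins *Mrpl27* was kept (0.77), 1.3% of the list and near the 1.14% of all genes. The list median was 0.15. Among 15 genes of lipoylation and the pyruvate dehydrogenase complex, the pathway through which Cu kills cells in cuproptosis, none was kept, and the median was 0.12.

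Cytosolic ribosomal proteins had 3 of 79 kept, all higher (3.80%, against 1.14% of all genes): *Rps19* (0.61), *Rpl8* (0.63) and *Rpl35a* (0.60). The list median was 0.31 (replicate SD 0.20), with 64 of 79 above 0. Translation factors (7.58% of 66 kept) went both ways, with *Eef1b2* (0.84), *Eif3i* (0.60) and *Eif2b5* (0.48) higher, and *Eif2ak2* (-0.74), the RNA-activated kinase PKR, and *Eif1a* (-0.50) lower. Of 44 proteasome genes, the subunit *Psma7* (0.53) and the assembly chaperone *Psmg3* (0.90) were kept higher (4.55%). *Rps18-ps5*, named as a pseudogene of *Rps18* though annotated as coding, had a difference of 1.11 and an uncertain count.

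Splicing genes had 4 of 68 kept (5.88%, against 1.14% of all genes) and a list median of 0.07. *Snrpa1* (0.58), *Snrpb* (0.63) and *Sf3b5* (0.75) were higher and *Snrpe* (-0.87) lower. Of 48 genes of DNA replication and S phase, *Mcm6* of the replicative helicase (0.49) and *Rrm1* of ribonucleotide reductase (0.85) were kept higher and *Ccne2*, cyclin E2, lower (-1.02). The kept share was 6.25%. The list had 38 of 48 above 0 and a median of 0.23. Among 54 mitotic genes *Cdca8* (0.61) and *Racgap1* (0.48) were kept higher and *Spc25* of the kinetochore lower (-0.84), 5.56% of the list. *Cdca8* was 1 of the 5 kept genes called in scr, where it fell by 0.35 with Cu (edgeR adjusted p = 0.0388).

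For Cu handling itself, 1 of 20 genes was kept (5%, against 1.14% of all genes). *Commd1*, which acts in the trafficking of Cu transporters, was at 21.2 and 20.6 CPM in untreated *Baf180* KD and 34.3 and 29.1 with Cu, and at 31.7 and 36.7 in untreated scr and 27.1 and 31.0 with Cu. Its Cu and NT libraries did not overlap in either line and moved opposite ways, with a difference of 0.92 (SE 0.17, edgeR adjusted p = 0.0202). *Commd2* of the same family differed by 0.69 before and 1.04 after correction. The exporter *Atp7a* had a difference of -0.72 before correction (edgeR adjusted p = 0.0102) and -0.19 after it (edgeR adjusted p = 0.451). Its Cu response in *Baf180* KD was -0.50 before (edgeR adjusted p = 0.0108) and -0.18 after correction (edgeR adjusted p = 0.238). *Atp7a* was thus called before correction only. The importer *Slc31a1* had a corrected difference of 0.21 (edgeR adjusted p = 0.596), and neither gene was kept.

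*Mt1* and *Mt2*, the metallothioneins, were at 218 to 326 and 96.3 to 129 CPM in *Baf180* KD libraries, above the 55.2 to 87.6 and 18.2 to 29.0 CPM of scr. Their corrected differences, -0.32 (SE 0.25) and -0.49 (SE 0.21), did not pass (edgeR adjusted p = 0.528 and 0.216). *Slc30a1*, the zinc exporter driven by Mtf1, differed by -0.05 (SE 0.19) and *Mtf1* by 0.00 (SE 0.13). Of 19 genes of metallothioneins and zinc transport, the vesicular transporter *Slc30a4* was kept, lower (-0.64). That is 5.26% of the list, against 1.14% of all genes.

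The NRF2 targets *Gsta4*, a glutathione transferase, and *Nqo1*, a quinone reductase, went up with Cu in both lines. *Gsta4* was at 157 and 135 CPM in untreated *Baf180* KD and 276 and 272 with Cu, and at 279 and 274 in untreated scr and 605 and 466 with Cu. Cu and NT libraries did not overlap in either line. The corrected responses were 0.85 and 1.01 and their difference -0.16 (SE 0.18, edgeR adjusted p = 0.714). *Nqo1* had responses of 1.03 in *Baf180* KD and 0.66 in scr, the latter not past the threshold (edgeR adjusted p = 0.0682), and a difference of 0.37 (SE 0.21, edgeR adjusted p = 0.353). *Islr*, an adhesion-related secreted protein, fell in both lines, by 0.70 and 1.17, and differed by 0.47 (SE 0.13, edgeR adjusted p = 0.070). Of 37 NRF2 and glutathione genes, *Sod1* (0.66), which uses Cu, and *Prdx6* (0.50) were kept higher (5.41%, against 1.14% of all genes). The list median was 0.20.

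Lists of stress responses had 1 or 2 kept genes each, from 2% of the DNA repair list to 5.88% of the ATF4 list, against 1.14% of all genes. *Gadd45a*, a DNA damage gene under p53, was at 66.7 and 61.2 CPM in untreated *Baf180* KD and 50 and 50.28 with Cu, and at 75.1 and 62.5 in untreated scr and 83.2 and 88.5 with Cu. Both lines separated Cu from NT, in opposite directions, and the difference was -0.93 (SE 0.17, edgeR adjusted p = 0.0146). *Xiap*, an inhibitor of caspases (-0.57), was the other of 36 genes in that list, and *Nbn*, which senses DNA breaks (-0.81), the 1 kept of 50 repair genes. The chaperones *Dnajb4* (-0.58) and *Hsp90b1* (-0.78) were 1 of 20 heat shock and 1 of 22 ER stress genes. In the ATF4 list of 34, *Psph* of serine synthesis was higher (0.61) and the stress regulator *Nupr1* lower (-0.99), with 30 of 34 above 0.

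Against 1.14% of all genes, none of 28 muscle transcription factor and fusion genes, 53 sarcomere genes or 36 integrin and adhesion genes was kept, with medians of -0.02, -0.16 and 0.01, and *Postn* was the 1 kept of 61 collagen and matrix genes. *Synpo2l*, an actin-associated muscle protein, had -0.38 (SE 0.10, edgeR adjusted p = 0.0638), and *Klf4*, a transcription factor, -0.45 (SE 0.21, edgeR adjusted p = 0.269). Of 50 signalling genes *Tgfb2* was kept lower (-0.69) beside *Wnt4*, 4% of the list. The Zfp-named zinc finger genes had a median of -0.25 (replicate SD 0.31) with 83 of 339 above 0. In this list *Zfp260*, *Zfp809* (-1.07), *Zfp148* (-0.51) and *Zfp281* (-0.49) were kept, 1.18% of the list against 1.14% of all genes. Immediate early, sterol, glycolysis, iron, lysosome, interferon and SWI/SNF lists had no kept gene, with medians from -0.06 to 0.24.

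For the 10 other genes among the 12 lowest, the scr response was above 0. *Prkg2*, a cGMP-dependent kinase, was at 130 and 146 CPM in untreated *Baf180* KD and 78.7 and 106 with Cu, and at 36.3 and 23.7 in untreated scr and 43.0 and 56.4 with Cu. Both lines separated Cu from NT and the difference was -1.25 (SE 0.28, edgeR adjusted p = 0.0353), of which scr gave 0.70 and *Baf180* KD -0.55, neither called. *Angpt1*, a ligand of the receptor Tek, had -1.22 at 1.86 to 6.58 CPM in scr and 32.2 to 83.9 in *Baf180* KD. *Dio2*, which activates thyroid hormone, had -1.21, *Etfrf1* -1.16, *Gpbp1* -1.15, *Hmgn3*, a nucleosome-binding protein, -1.13, *Emc2* of the ER membrane protein complex -1.13, *Snapc5* of the snRNA-activating complex -1.13, *Dynlt3*, a dynein light chain, -1.11 and *Zhx1* -1.10. *Snapc5*, *Dio2* and *Etfrf1* averaged 5.08 to 5.99 CPM, near the minimum for naming.

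The following properties are a description, since a gene had to be called before correction to be kept, and those calls followed GC content. Lower genes had a median of 44.1% (quartiles 41.3% and 46.8%) in GC content, against 48.9% for higher genes and 48.9% for all tested. After correction the poorest 5% of genes in GC still had a median difference of -0.23. Median exon length was 4032 bases for lower, 3459 for higher and 3774 for all genes. They were also expressed above the median gene, at 37.6 CPM for lower, 68.3 for higher and 16.6 for all. The part of expression level in the kept shares of the gene lists, set against that of all genes, was not tested. By biotype, 180 of 187 were protein-coding.

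The Cu responses of *Baf250a* and *Brd9* KD cells come from libraries outside the comparison. Per 10 percentage points of GC content, their slopes were 0.014 and 0.097 in *Brd9* KD with Cu and -0.067 and -0.217 untreated. In *Baf250a* KD they were -0.129 and -0.035 with Cu and -0.067 and -0.204 untreated. The part of these slopes in the shares given next was not tested beyond the correction. Among the 64 higher genes the *Brd9* KD response was above 0 for 58 (90.6%, against 52.4% of all genes; median 0.20), and among the 123 lower genes below 0 for 99 (80.5%, against 47.6%; median -0.13). In *Baf250a* KD the shares were 59.4% and 61.8%, with medians of 0.02 and -0.03. Few of these were called in that direction. In *Brd9* KD 3 higher and 6 lower genes were called (0.361% and 0.502% of all genes), and in *Baf250a* KD 2 and 2 (0.361% and 0.337%). *Wnt4* rose by 0.98 in *Baf250a* KD and 0.70 in *Brd9* KD, against 0.87 in *Baf180* KD, and *Postn* had -0.31 and -0.83.

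**Figure D4:**
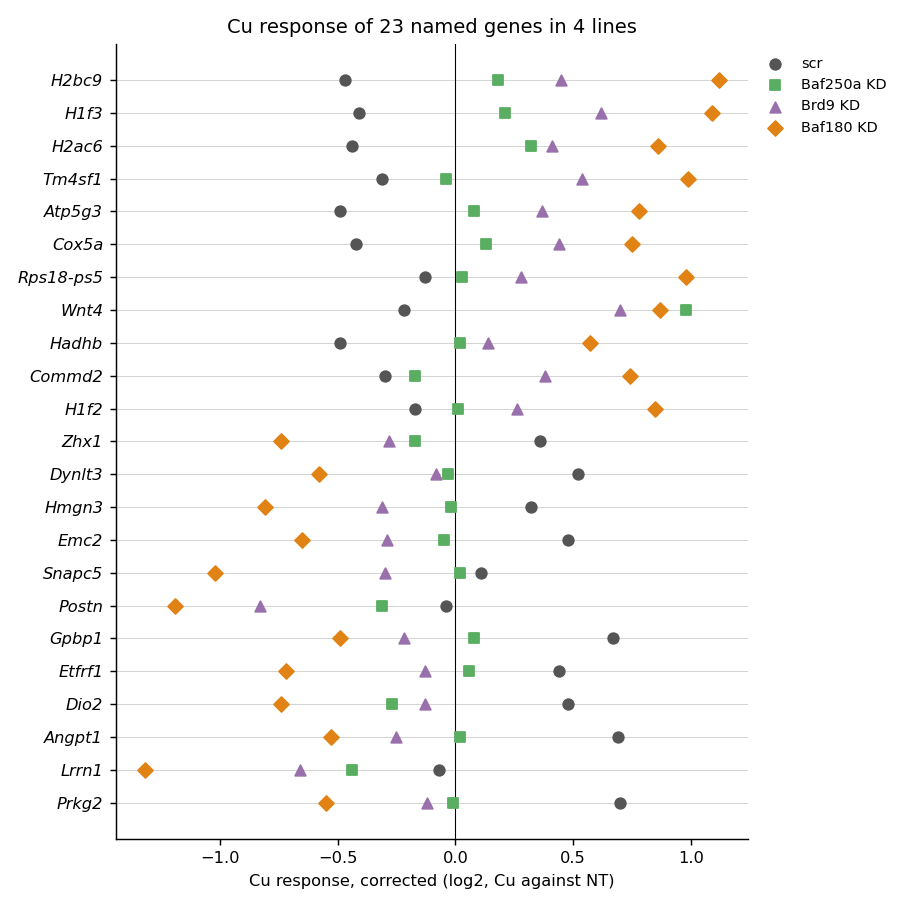
Corrected Cu response (x axis, log2) of 23 genes named for the largest differences (y axis) in the 4 lines, 1 symbol per line. *Baf180* KD (diamonds) and scr (circles) lie at opposite ends for most genes by choice, and *Baf250a* and *Brd9* KD lie between them, except for *Wnt4*, where all 3 KD lines lie at 0.70 or above.

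Tested against the mean response of *Baf250a* and *Brd9* KD, the Cu response of *Baf180* KD was called for 0 of 16344 genes by edgeR's quasi-likelihood test after correction (0%) and 0 before. At an unadjusted p under 0.05 there were 1392 genes after correction and 1723 before, and DESeq2 called 2 after correction. The kept differences are thus differences from scr, and none was shown to be particular to *Baf180* KD among the KD lines. The contrast shares the *Baf180* KD libraries with the kept differences. *Lrrn1* had -0.77 in it (unadjusted p = 1.36e-05) and *Wnt4* 0.02 (unadjusted p = 0.944).

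**Figure D5:**
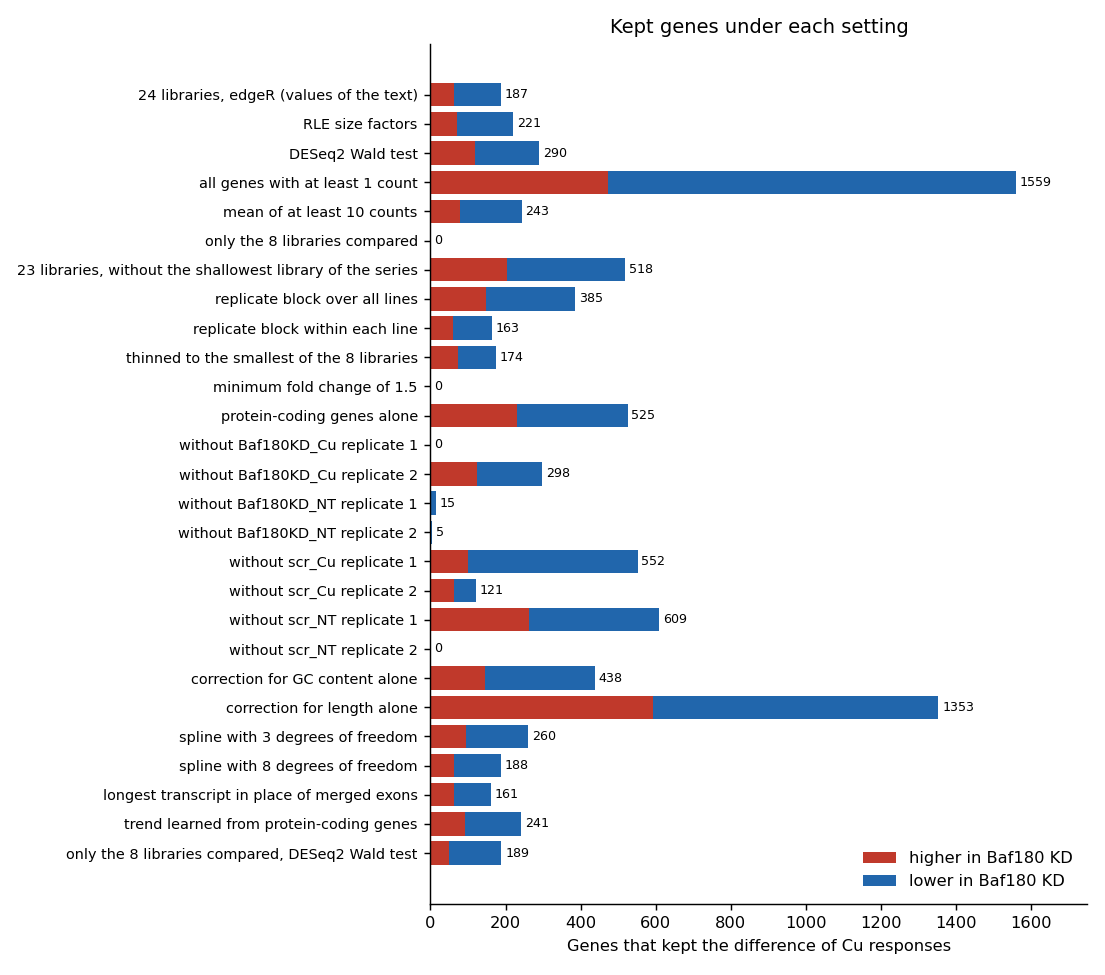
Number of kept genes (x axis, from 0) under each alternative processing or choice of libraries (y axis), split into higher and lower in *Baf180* KD. The count runs from 0, with the 8 libraries alone in edgeR, a minimum fold change of 1.5, or without replicate 1 of *Baf180* KD with Cu or replicate 2 of untreated scr, to 1559 with every gene that has a count.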

How the data were processed

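RNA was depleted of ribosomal RNA with RNase H and made into strand-specific libraries. The authors aligned read pairs to mm10 with STAR, kept uniquely mapped reads and counted pairs per gene with featureCounts on the reverse strand setting; versions are not given in the sources used here. The deposited values are whole-number counts per gene symbol, not normalized. The authors' DESeq2 tables, which hold their fold changes and p-values, were not used.

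All 24 libraries (12 groups of 2, grouped by sample title) were fitted together in R 4.3.3 with edgeR 4.0.16 (glmQLFit, glmQLFTest, TMM, filterByExpr), leaving 12 residual degrees of freedom, with Benjamini-Hochberg adjusted p under 0.05. The correction fitted, in each library, a spline with 5 degrees of freedom in GC content and in log2 length of merged exons (GENCODE M21, GRCm38) to log2 CPM (prior count 2), used as an offset. Of 55291 symbols 53670 matched, 378 of them through synonyms. CPM in the text are TMM-scaled and not corrected, and differences are corrected unless stated. A trend in GC content that Cu itself caused would also be removed.

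Named genes were kept, protein-coding, at least 5 CPM on average over the 8 libraries, and of 1 sign in all leave-one-out fits: the 12 largest and 12 smallest differences, kept members of 32 gene lists, and genes the study named. 1 of these genes is not reported here. Members and lists were chosen with earlier results of these data known. Promoters are from RefSeq (GRCm38.p6), for 6 of 6 kept histone genes. Replicate libraries differed by a median of 0.17 to 0.24 in log2 CPM, and none was a duplicate. The p-values measure the spread between replicates of the same line and condition, pooled over the 12 groups of the series. The fitting was run on simulated counts with known changes, drawn independently for each gene and library. Beyond the trend in GC content and length, such counts hold no shift of many genes in 1 library. They therefore cannot judge calls that rest on single libraries. Alternatives were RLE size factors, DESeq2 1.42.0, other filters, sets of libraries, replicate blocks, thinned counts (to 16520069), a minimum fold change of 1.5, protein-coding genes alone, other corrections and leaving out each library.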

Additional observations from a re-analysis of the deposited data

Results flagged for a closer look

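The difference of Cu responses between *Baf180* KD and scr was itself tested, and 187 genes had a difference past the threshold before and after the correction. The named genes among them are listed with their corrected log2 difference, each past an adjusted p of 0.05 in edgeR's quasi-likelihood test. The correction raised some of these values and lowered others, and the order by size depends on it. Before it *Hadhb* differed by 0.50 and *Commd2* by 0.69, and *Wnt4* by 1.38 and *H1f2* by 1.32.

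Among the 12 largest, *H2bc9* (1.58), *H1f3* (1.49), *H2ac6* (1.29), *Tm4sf1* (1.29), *Atp5g3* (1.27), *Cox5a* (1.18), *Rps18-ps5* (1.11), *Wnt4* (1.08), *Hadhb* (1.07), *Commd2* (1.04) and *H1f2* (1.02) were higher in *Baf180* KD. Of the 12 smallest, *Lrrn1* (-1.25), *Prkg2* (-1.25), *Angpt1* (-1.22), *Dio2* (-1.21), *Etfrf1* (-1.16), *Postn* (-1.15), *Gpbp1* (-1.15), *Hmgn3* (-1.13), *Emc2* (-1.13), *Snapc5* (-1.13), *Dynlt3* (-1.11) and *Zhx1* (-1.10) were lower.

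Among other members of the gene lists, *Ndufb2* (0.96), *Commd1* (0.92), *H2ac11* (0.91), *Psmg3* (0.90), *Rrm1* (0.85), *Eef1b2* (0.84), *Mrpl27* (0.77), *Sf3b5* (0.75), *H1f4* (0.67), *Sod1* (0.66), *Rpl8* (0.63), *Snrpb* (0.63), *Uqcrfs1* (0.61), *Psph* (0.61), *Cdca8* (0.61), *Rps19* (0.61), *Eif3i* (0.60), *Rpl35a* (0.60), *Snrpa1* (0.58), *Psma7* (0.53), *Prdx6* (0.50), *Mcm6* (0.49), *Eif2b5* (0.48) and *Racgap1* (0.48) were higher. Lower members were *Zfp809* (-1.07), *Ccne2* (-1.02), *Nupr1* (-0.99), *Gadd45a* (-0.93), *Zfp260* (-0.89), *Uqcrb* (-0.88), *Snrpe* (-0.87), *Spc25* (-0.84), *Nbn* (-0.81), *Hsp90b1* (-0.78), *Eif2ak2* (-0.74), *Tgfb2* (-0.69), *Slc30a4* (-0.64), *Dnajb4* (-0.58), *Xiap* (-0.57), *Zfp148* (-0.51), *Eif1a* (-0.50) and *Zfp281* (-0.49). These calls were lost in edgeR with the 8 libraries alone, where the lowest adjusted p was 0.0777, and the response of *Baf180* KD was called against the mean of the other KD lines for none of these genes.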

How the results depend on the processing

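The 187 kept genes had the same sign in each alternative that tested them (180 of them among protein-coding genes alone). Their choice on the same libraries largely fixes this. How many genes were called depended on the libraries and on the filter. The counts called before correction, called after it and kept were 2116, 235 and 187. They became 0, 0 and 0 with the 8 libraries alone (3685 and 2346 genes at an unadjusted p under 0.05 before and after correction), 0, 0 and 0 with a minimum fold change of 1.5, and 1290, 312 and 189 with the 8 libraries in DESeq2, added after the data were seen. After correction and kept they were 365 and 290 with DESeq2, 1785 and 1559 with every gene that has a count, 689 and 518 without the shallowest library of the series (495778 counts), 799 and 525 for protein-coding genes alone, 572 and 438 with GC content alone and 1542 and 1353 with length alone. Without 1 library they ran from 1 (untreated scr replicate 2) to 3204 (untreated scr replicate 1) before correction, 1 to 784 after it and 0 to 609 kept. Without replicate 1 of *Baf180* KD with Cu they were 2, 1 and 0, without replicate 2 of it 2264, 401 and 298, and without replicate 1 of scr with Cu 2952, 770 and 552.

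The Cu response of *Baf180* KD had 786 calls, and 1977 with every gene that has a count, 148 and 501 with the 8 libraries in edgeR and DESeq2, 1391 without the shallowest library, 3 with the minimum fold change, 1406 for protein-coding genes, 1433 with length alone, and 85 (without untreated *Baf180* KD replicate 2) to 1074 without 1 library. That of scr had 84, and in the same settings 646, 14, 80, 141, 7, 136 and 52, with 127 under GC content alone and 20 (without scr Cu replicate 2) to 103 without 1 library. Against the other KD lines the count was 0, 2 with DESeq2, 220 with every gene that has a count and 0 to 1 without 1 library. *Pbrm1* in untreated cells kept -0.78 under the minimum fold change but lost its call there, and ran from -1.01 to -0.50 without 1 library.

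Replicate numbers gave correlations of deviations between groups from -0.19 to 0.40 before correction and from -0.09 to 0.31 after it. Such values cannot exclude a pairing of libraries, and the main fit used none. A replicate block over all lines gave 2664, 524 and 385 calls before correction, after it and kept, and 1088 and 114 for *Baf180* KD and scr. A replicate block within each line gave 1878, 218 and 163, and 689 and 74. Against the other KD lines either block gave 2.

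Signs turned in 4 genes that were not called. *Gsta4* ran from -0.33 to 0.04 without 1 library (0.04 without scr Cu replicate 1), *Slc31a1* -0.05 with length alone, and *Slc30a1* -0.13 to 0.02 without 1 library (0.02 without *Baf180* KD Cu replicate 2) and 0.03 with the longest transcript. *Mtf1*, at 0.00, ran from -0.06 to 0.09 without 1 library (with -0.01 once and -0.04 in 2 of these fits), and -0.02, -0.03, -0.05 or -0.06 in 7 other settings. Causes were not tested. Thinning to the smallest left 174 kept genes.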
